A study of Mus musculus with 6 samples.

Results

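Methylglyoxal is a reactive dicarbonyl that forms as a by-product of glycolysis and damages proteins and DNA. Glyoxalase 1, encoded by Glo1, converts the adduct of methylglyoxal and glutathione into lactoylglutathione. Glyoxalase 2, encoded by Hagh, splits that product into lactate and free glutathione, and several reductases clear dicarbonyls without the glyoxalases. The genes described here are Glo1, Hagh, Glod4, Park7, Akr1b3, Akr1b8 and Akr1a1, taken by symbol from the authors' deposited comparison of cortical cells. Of these 7 symbols, 6 have a row among the 21937 of the table, and Akr1a1 is absent under that symbol. RefSeq lists Akr1a4 as an older symbol of Akr1a1, and the row Akr1a4 is described in its place. The set was chosen by gene symbol after the deposited fold change and adjusted p of Glo1 were known, so these values are given as a description.

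The knockdown cells received a plasmid for an shRNA against Nat14, a gene named for the N-acetyltransferases (shNat14, 3 libraries), and the control cells a plasmid for a control shRNA (NTC, 3 libraries). Plasmids were electroporated into mouse brains in the womb at embryonic day 14.5. At embryonic day 18.5 the cortex was dissected and dissociated, and live cells with green fluorescence were sorted. Each library can thus hold a mixture of cell types, and whether cells without plasmid were carried along was not measured. The labels name neither the mouse strain, nor the promoter of the shRNA, nor whether replicate libraries stem from different embryos, so the p-values cover only the spread among these libraries, possibly technical. The table holds 1 fold change, 1 mean level, 1 p-value and 1 adjusted p-value per gene but nothing per library, which leaves sequencing depth unknown and allows no SD. Fold changes are shNat14 over NTC, a direction read from the negative sign of Nat14 itself, which stood at 10.05% of the NTC level by the authors' deposited table. At an adjusted p under 0.05 the authors' deposited table called 34 of 21937 rows, 0.155% of them.

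The labelled cell type was checked against marker genes. Neuronal and cortical markers were abundant, with 8 of 8 pan-neuronal and 7 of 8 cortical excitatory genes at or above the median level of all rows, a log2 CPM of 1.71, where CPM is the read count scaled to library size. None of the 16 was called by the authors' deposited table, and Gap43, a growth cone protein, had the smallest p of them (log2 fold change 0.78, p = 0.0114). Slc17a7, a vesicular glutamate transporter, was the cortical marker below the median level. Genes of other cell types were present too and differed in direction between the lists. All 8 astrocyte markers had a negative log2 fold change by the authors' deposited table, with a median of -0.89, and their implied levels summed to 1370 CPM in shNat14 and 2010 CPM in NTC. The 8 microglia markers had a median of -1.47, with C1qc alone positive at 0.25, and summed to 19.8 CPM in shNat14 and 44.4 CPM in NTC. At an unadjusted p under 0.05, 3 astrocyte and 5 microglia markers were lower, against 2.84% of all rows above the lowest level. The 6 choroid plexus and ependyma markers had a median of 1.14 and summed to 618 CPM in shNat14 and 184 CPM in NTC. Of these 6, 2 were higher at that p, against 3.51% of all rows above the lowest level. None of the marker lists had a gene at the lowest level of the table, and the part of cell composition in the values below was not tested. In such bulk libraries fewer cells of a type and less RNA per cell cannot be told apart.

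Glo1 was the single called gene of the set and was higher in shNat14. The authors' deposited table gave it a log2 fold change of 1.56, which is 2.95-fold (p = 9.67e-08, adjusted p = 0.000163). Over all rows 0.0547% were called higher. The deposited mean level of 9.51 log2 CPM and this fold change imply about 1090 CPM in shNat14 and 369 CPM in NTC, if the mean level is the plain mean over groups of equal size. The deposited p-value corresponds to an approximate 95% interval of 0.99 to 2.14 on the log2 scale, under a normal distribution. By p-value Glo1 ranked 13 among all 21937 rows of the authors' deposited table. It was the most abundant of the 34 called genes. Of the 169 genes whose mean level was at least that of Glo1, Glo1 itself included, 1 had a log2 fold change of 1.56 or more in either direction, and that 1 gene was Glo1. Of the 10969 genes in the upper part of the level range, at or above its median, 50 had a log2 fold change at least as high as that of Glo1, 0.456% of them.

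**Figure D1:**
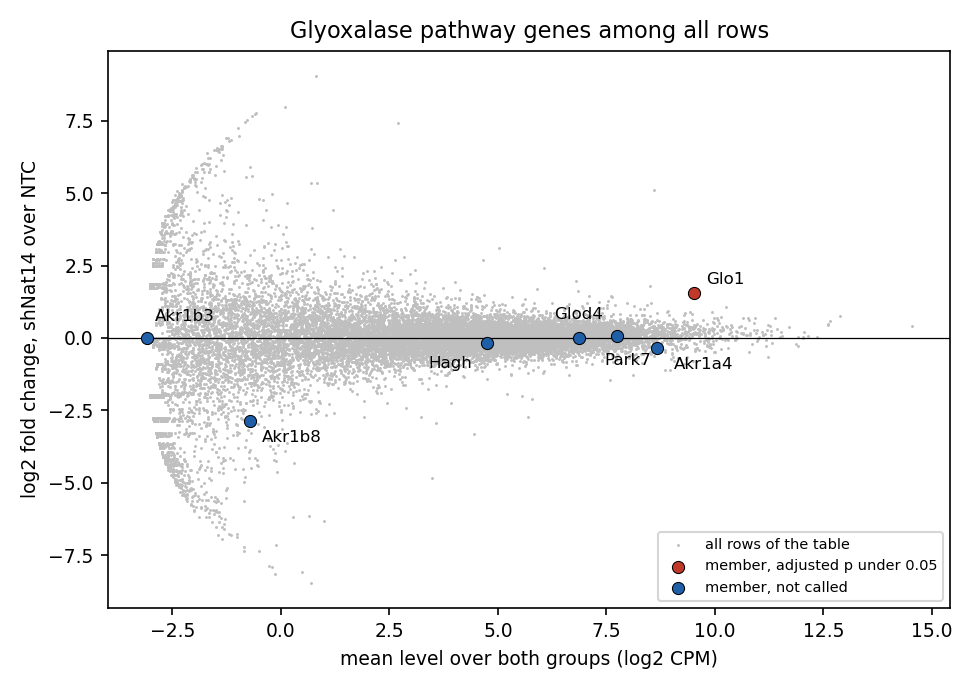
Log2 fold change of shNat14 over NTC (vertical axis) against mean level in log2 CPM (horizontal axis) for all 21937 rows, with the 7 rows of the set marked. Glo1, in red, lies above the cloud of genes at its level (1.56 at 9.51 log2 CPM), whereas Hagh, Glod4, Park7 and Akr1a4 lie within it.

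The start region of Glo1 is shown beside that of Hagh because the enzymes catalyse consecutive steps and only Glo1 was called. The sequences are from RefSeq on GRCm38.p6 and run from 250 bases before to 50 bases after an annotated start, 5′ to 3′. The Glo1 window is chr17:30612610-30612909, minus strand, and that of Hagh is chr17:24850240-24850539, plus strand, for the first of its annotated starts. Capitals mark matches on either strand to the CCAAT box (CCAAT), the GC box (GGGCGG) and the core of the antioxidant response element (TGACNNNGC), the site read by the transcription factor Nrf2.
Glo1: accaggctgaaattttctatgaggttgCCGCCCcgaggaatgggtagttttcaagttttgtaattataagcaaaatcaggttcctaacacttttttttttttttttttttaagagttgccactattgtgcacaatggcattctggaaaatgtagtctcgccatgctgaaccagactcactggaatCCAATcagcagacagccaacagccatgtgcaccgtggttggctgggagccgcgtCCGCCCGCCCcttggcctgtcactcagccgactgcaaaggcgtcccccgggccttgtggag
Hagh: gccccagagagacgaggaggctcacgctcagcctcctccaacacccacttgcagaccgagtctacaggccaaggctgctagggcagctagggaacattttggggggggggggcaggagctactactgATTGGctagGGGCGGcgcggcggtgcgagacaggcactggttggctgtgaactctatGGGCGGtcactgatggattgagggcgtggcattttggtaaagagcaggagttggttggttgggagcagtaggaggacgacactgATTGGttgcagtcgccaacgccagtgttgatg
The Glo1 window held 1 CCAAT box and 3 GC boxes, of which 2 overlapped each other, and no match to the antioxidant response element core. The Hagh window shown held 2 CCAAT boxes and 2 GC boxes and likewise no match to that core. The window of a second annotated Hagh start, chr17:24850417-24850716, held 1 match to that core, 1 CCAAT box and 1 GC box. Among the start regions of 27025 RefSeq genes, 37.9% held a CCAAT box, 35.9% a GC box and 12.5% the antioxidant response element core. A match of letters is a description and does not show that a factor binds, and a missing match covers this window alone.

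Hagh, the enzyme of the second step, did not pass the test. Its log2 fold change by the authors' deposited table was -0.16 (p = 0.63), with an approximate 95% interval of -0.80 to 0.48. The implied levels were 25.3 CPM in shNat14 and 28.2 CPM in NTC. Glod4, which carries glyoxalase domains, stood at 0.01 by the authors' deposited table (p = 0.963, approximate interval -0.49 to 0.51), with implied levels of 117 CPM in shNat14 and 116 CPM in NTC. Park7, also called DJ-1, is an oxidative stress protein for which glyoxalase and deglycase activities have been described. It stood at 0.06 by the authors' deposited table (p = 0.864, approximate interval -0.58 to 0.70), with implied levels of 218 CPM in shNat14 and 210 CPM in NTC.

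The aldo-keto reductases of the set reduce aldehydes and dicarbonyls with NADPH. Akr1a4, the row for the aldehyde reductase Akr1a1, had a log2 fold change of -0.34 by the authors' deposited table (p = 0.166, approximate interval -0.82 to 0.14). Its implied levels were 358 CPM in shNat14 and 452 CPM in NTC. Akr1b8, an aldose reductase-like enzyme, did not pass the test and stood at -2.86 by the authors' deposited table (p = 0.0194, adjusted p = 0.808). Its mean level of -0.72 log2 CPM is under the median of all rows, where the size of a fold change is uncertain. Akr1b3, aldose reductase, is listed at the lowest mean level of the table, -3.09 log2 CPM, which it shares with 4537 rows in all, and therefore has no fold change to describe.

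The 4 other enzymes at or above the median level ran from -0.34 to 0.06 in log2 fold change, with a median of -0.07, against 1.56 for Glo1. Their approximate intervals ended at 0.14 to 0.70, below the lower bound of 0.99 for Glo1. The log2 fold change of Glo1 exceeded theirs by 1.51 for Park7 up to 1.90 for Akr1a4. Since Glo1 was known to be high when the set was chosen, this gap is a description. The difference between genes was not tested, because values per library are needed for the covariance of genes measured in the same libraries. Over the 10969 better-expressed genes the median log2 fold change was 0.03 by the authors' deposited table.

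**Figure D2:**
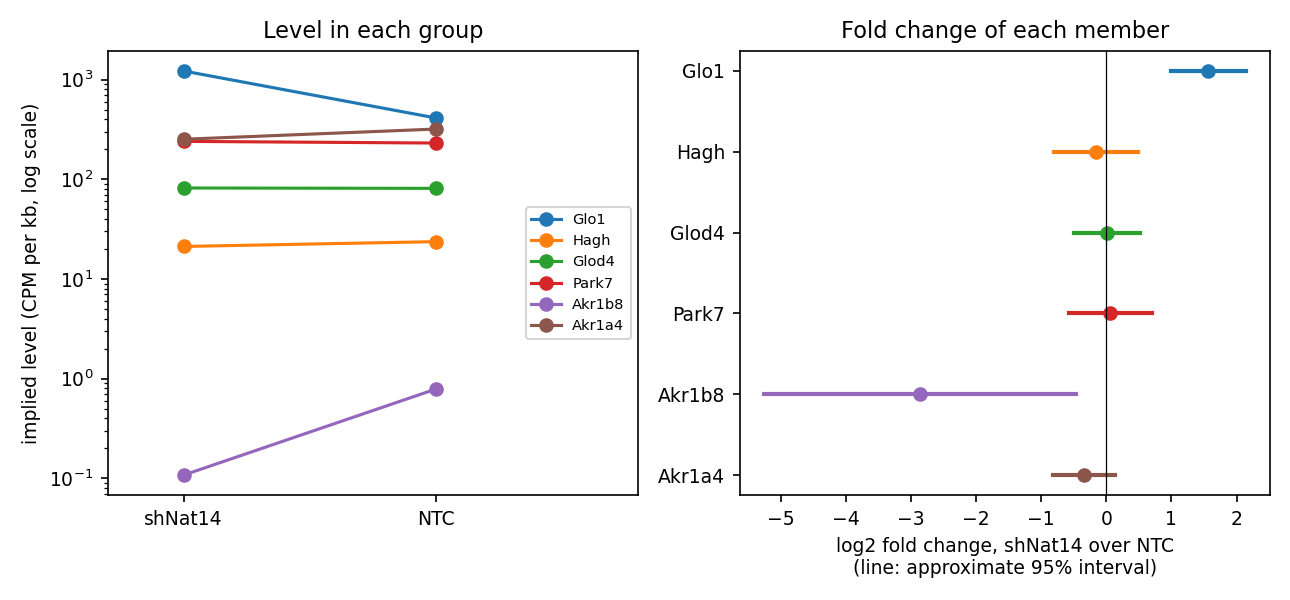
Left, levels in shNat14 and NTC implied by the deposited mean level and fold change, in CPM per kb of transcript on a log axis, with 1 line per gene; right, log2 fold change (point) with its approximate 95% interval (line). Glo1 stands at 1220 CPM per kb in shNat14 and 412 CPM per kb in NTC, and its interval lies above those of Hagh, Glod4, Park7 and Akr1a4.

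Levels were compared between genes after division by transcript length, taking the longest GENCODE transcript that is paired with a RefSeq record. The mean level was 815 CPM per kb for Glo1, 285 for Akr1a1 (row Akr1a4), 236 for Park7, 81.5 for Glod4, 22.4 for Hagh and 0.448 for Akr1b8. In mean level per kb Hagh thus stood lowest of the well-expressed enzymes and Glo1 highest, and no spread is known that would tell neighbours in this order apart. The implied level of Glo1 was 1220 CPM per kb in shNat14 and 412 CPM per kb in NTC. That of Akr1a4 was 252 CPM per kb in shNat14 and 319 CPM per kb in NTC. Per kb, Glo1 thus stood above Akr1a4 in both groups. Before division by length the order in NTC was the reverse, with implied levels of 369 CPM for Glo1 and 452 CPM for Akr1a4.

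Sequence shared with other genes touched Glo1 and the aldose reductases. Of the 50-base words in the Glo1 transcript, 46.9% also occur in the processed pseudogene Gm13443, which has no row in the table. For Akr1b3 the share was 86.2%, spread over 5 other genes, of which Gm38056 held 82.4%. Among these 5, Gm6644, which held 56.2%, has a row of its own, and the others have none. For Akr1b8 it was 3.21%, most of it with its paralog Akr1b10, and for Hagh, Glod4, Park7 and Akr1a1 it was 0. Neither the read length nor the treatment of reads with several matches is given in the sources used here, and the values of Glo1 and Akr1b3 are uncertain for that reason; the part of these copies in their values was not tested. By whole gene span in RefSeq, Hagh overlaps Fahd1 and Meiob, Glo1 overlaps Gm8373 and Akr1b8 overlaps Gm13858. Whether their exons overlap was not measured. No source says that strand was used, so reads from any shared exon could not be told apart.

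Genes next to Glo1 on the chromosome also had positive fold changes, although none was called. Of the 5 genes with a row on each side of Glo1 on chromosome 17, 7 of 10 had a positive fold change by the authors' deposited table and 4 had an unadjusted p under 0.05, all 4 higher in shNat14. Over all rows 2.79% were higher at that p. On one side lay the pseudogene Gm6402 at 0.52 (p = 0.589) and then Btbd9, a BTB domain gene, at 0.75 by the authors' deposited table (p = 0.0096). Btbd9 was well expressed, with implied levels of 173 CPM in shNat14 and 103 CPM in NTC. On the other side lay Dnahc8, an axonemal dynein heavy chain, with a fold of 4.01 by the authors' deposited table (p = 0.00204), and implied levels of 6.57 CPM in shNat14 and 1.64 CPM in NTC. Next came Glp1r, the receptor of glucagon-like peptide 1, at 3.39 by the authors' deposited table (p = 0.0375) but at a mean of -1.87 log2 CPM, where the size is uncertain. Umodl1 followed at 3.46, with a mean of -2.14 log2 CPM (p = 0.226), and then Abcg1, a sterol transporter, at 0.69 by the authors' deposited table (p = 0.0407), with implied levels of 69.6 CPM in shNat14 and 43.2 CPM in NTC. Beyond Btbd9, Zfand3 stood at -0.07 and Mdga1 at -0.30 by the authors' deposited table.

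As background, Glo1 lies in a segment of mouse chromosome 17 that is duplicated in some laboratory strains, and this segment also holds Dnahc8, Glp1r and a stretch of Btbd9. Gene copy number was not measured here, and its part in these values was not tested. Dnahc8 encodes an axonemal dynein, and whether cilia of these cells use it was not measured. Of the choroid plexus and ependyma markers, Foxj1 and Enkur, tied to cilia, stood at 1.36 (p = 0.0459) and 1.37 (p = 0.0332) by the authors' deposited table. The higher sum of that marker list rests mostly on Ttr, the choroid plexus transthyretin, at a mean of 8.52 log2 CPM and a fold of 3.48 by the authors' deposited table (p = 0.065). The part of these cells in the Dnahc8 value was not tested either.

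**Figure D3:**
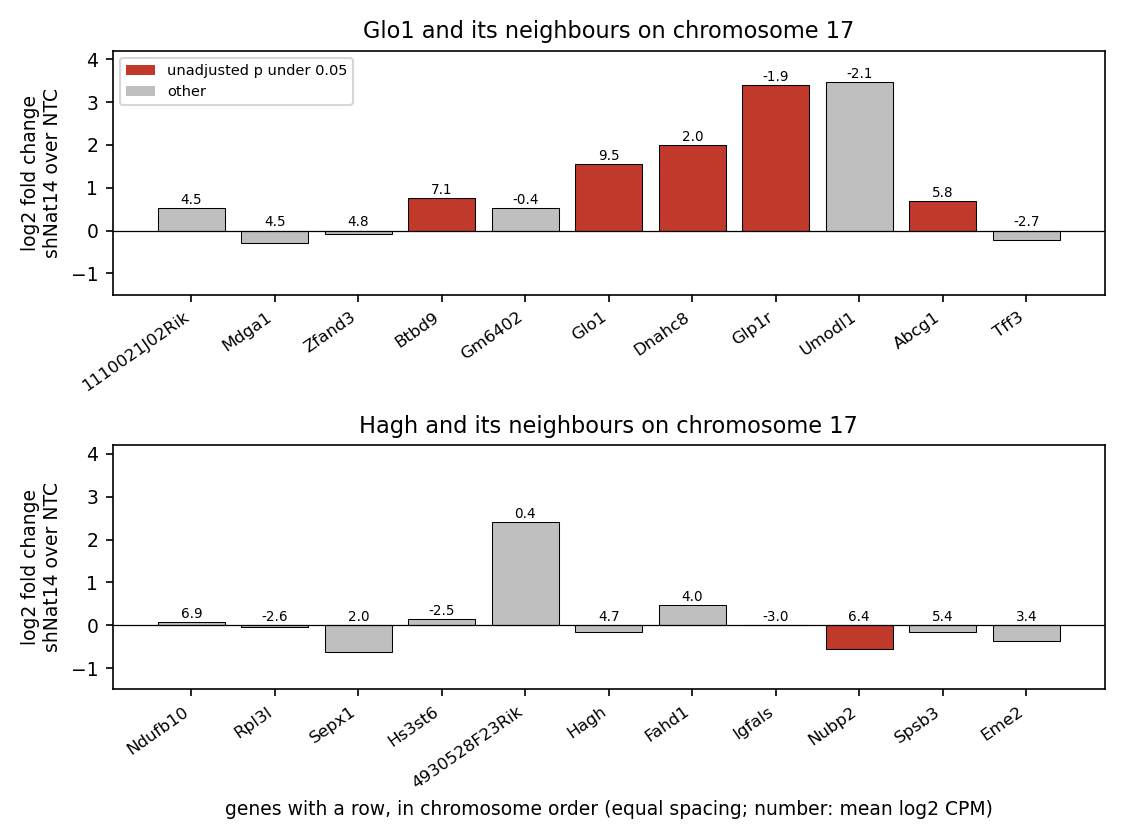
Log2 fold change of shNat14 over NTC (vertical axis) for Glo1 and Hagh and the 5 genes with a row on each side of each, in chromosome order with equal spacing; red bars have an unadjusted p under 0.05 and the number at each bar is the mean log2 CPM. Around Glo1 the 7 bars from Btbd9 to Abcg1 are all positive, and around Hagh 1 neighbour, Nubp2, is red and points down.

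The neighbours of the other enzymes are given for comparison, and the difference from Glo1 was not tested. Hagh, also on chromosome 17, had 4 positive and 5 negative neighbours of 10 by the authors' deposited table, with 1 at an unadjusted p under 0.05, the iron-sulfur assembly gene Nubp2 at -0.56 (p = 0.0451). Neighbours of Glod4 and of Akr1a1 had 0 genes at that p. Park7 had 1, Tnfrsf9, at -5.03 and a low level by the authors' deposited table (p = 0.0294). Akr1b3 and Akr1b8 lie next to each other on chromosome 6, together with Akr1b10 and Akr1b7, and their sole other neighbour at that p was Lrguk at 1.66 by the authors' deposited table (p = 0.0414). After these values had been seen, all 16316 protein-coding genes above the lowest level were scanned for 3 or more neighbours in a row with fold changes of 1 sign and an unadjusted p under 0.05. There were 2 runs of 4 genes and 3 runs of 3. The runs of 4 were Btbd9, Glo1, Dnahc8 and Glp1r, and Sytl2, Ccdc89, Crebzf and Tmem126a on chromosome 7, both higher in shNat14. The first run counts Glo1 itself, whose adjusted p was known when the set was chosen, so its length is a description. The number of runs that arise by chance was not computed. With noncoding genes included, Gm6402 split the first run and left 3 genes. That scan of 17228 genes held 1 run of 4, the one on chromosome 7, and 5 runs of 3. The Glo1 run was among the runs of 3.

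Genes that feed the pathway were read next, beginning with glycolysis, the source of methylglyoxal. None of 17 glycolytic genes was called, and 15 of the 17 had a negative fold change by the authors' deposited table. Of the 10969 better-expressed genes 5093 were negative. The median was -0.21 for the 17, beside 0.03 over the better-expressed genes. Unadjusted p was under 0.05 for 2 of the 17, both lower in shNat14, against 2.12% of genes at or above the median level. These were the aldolases Aldoc at -0.67 (p = 0.0321) and Aldoa at -0.48 (p = 0.0488) by the authors' deposited table. Aldoc is also used as an astrocyte marker, and the 8 astrocyte markers were all negative. The part of astrocytes in the Aldoc value was not tested. The smallest p among the positive genes was that of the phosphofructokinase Pfkp at 0.79 by the authors' deposited table (p = 0.0611). Tpi1 and Gapdh, the enzymes of the triose phosphates from which methylglyoxal forms, stood at -0.13 and -0.14 by the authors' deposited table.

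Glutathione is used in the first glyoxalase step and released in the second. Of 12 genes of glutathione synthesis, breakdown and cystine import, none was called and none had an unadjusted p under 0.05 by the authors' deposited table. Of all rows above the lowest level 3.51% were higher and 2.84% lower at that p. Among the 12 genes 8 had a positive fold change (median 0.15), beside 9118 of all 17400 rows above the lowest level. Gsr, glutathione reductase, had the smallest p on the positive side at 0.69 (p = 0.0842) and Ggt7 on the negative side among genes at or above the median level, at -0.43 (p = 0.449) by the authors' deposited table. Below that level Ggt5 stood at -2.58 (p = 0.151) and Ggt1 at -1.36 (p = 0.368) by the authors' deposited table. Gclc and Gclm, the subunits of the rate-limiting ligase, stood at 0.31 and 0.48 by the authors' deposited table.

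Of 23 genes of the Nrf2 pathway, which controls many detoxifying enzymes, none was called and 1 had an unadjusted p under 0.05. The shares over all rows above the lowest level were the 3.51% higher and 2.84% lower given above. The authors' deposited table put the 1 gene at that p, the glutathione S-transferase Gstm1, at -0.93 (p = 0.0012). The list split into 10 positive and 13 negative genes with a median of -0.09. Mafk, a small Maf partner of Nrf2, had the smallest p of the positive genes at 0.66 by the authors' deposited table (p = 0.2), and the classical targets Nqo1 and Hmox1 stood at -0.74 and -0.81. Among 22 glutathione S-transferases above the lowest level, none was called and 3 had an unadjusted p under 0.05 by the authors' deposited table, all lower. Over all rows above the lowest level 2.84% were lower at that p. Beside Gstm1 the authors' deposited table listed Gstp1 at -0.77 (p = 0.0198) and Gstt2 at -1.76 (p = 0.0188), the last at a mean of 0.01 log2 CPM. Gstt1 had the smallest p of the positive ones, at 0.79 by the authors' deposited table (p = 0.153). Several of these transferases are close paralogs, and their values are uncertain where reads could match several of them.

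The other carbonyl-clearing families held 1 call. Of 11 further aldo-keto reductases above the lowest level, none was called and 2 were higher at an unadjusted p under 0.05 by the authors' deposited table, Akr1c14 at 1.87 (p = 0.0161) and Akr1c18 at 5.02 and a very low level (p = 0.04). Over all rows above the lowest level 3.51% were higher at that p. Akr7a5, a reductase of aflatoxin and succinic semialdehyde, stood at -0.78 (p = 0.0599) by the authors' deposited table. Among 14 carbonyl reductases and aldehyde dehydrogenases, Aldh1a7 was called at 7.41 by the authors' deposited table (adjusted p = 2.96e-08) and no other had an unadjusted p under 0.05. With a mean of 2.70 log2 CPM, such a fold leaves NTC near the floor of the table, and its size is uncertain. Sequence shared with its paralog Aldh1a1 was not measured here. Aldh2, the mitochondrial enzyme, had the smallest p of the negative genes at -0.71 (p = 0.101), and Dcxr, the dicarbonyl and L-xylulose reductase, stood at -0.70 by the authors' deposited table (p = 0.133).

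Structural relatives and downstream genes held no call. Of 6 metallo-beta-lactamase relatives of Hagh, Lactb2 was at 1.44 by the authors' deposited table (p = 0.00395, adjusted p = 0.425) and Haghl, named as Hagh-like, at -0.59 (p = 0.0693). Of 4 relatives of Glo1 in the vicinal oxygen chelate family, Glod5 and Hpd were at the lowest level, Mcee stood at 0.18 (p = 0.636), and Hpdl at -2.21 and a low level by the authors' deposited table (p = 0.0363). Of 7 genes of lactate handling, none was called and 2 had an unadjusted p under 0.05, both higher, against the 3.51% given above. The authors' deposited table listed the monocarboxylate transporters Slc16a7 at 1.26 (p = 0.00101, adjusted p = 0.222) and Slc16a1 at 0.69 (p = 0.0134). Ldhd, which oxidises D-lactate, had a mean level of -2.10 log2 CPM. Of 9 genes of glycation repair and of receptors for glycated proteins, none was called and none had an unadjusted p under 0.05, 7 had a negative fold change by the authors' deposited table, and the smallest p at or above the median level was that of Ddost at -0.43 (p = 0.111), with Stab1, below that level, at -1.16 (p = 0.0873). Fn3k, which removes sugars bound to lysine, stood at 0.21 by the authors' deposited table (p = 0.681).

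**Figure D4:**
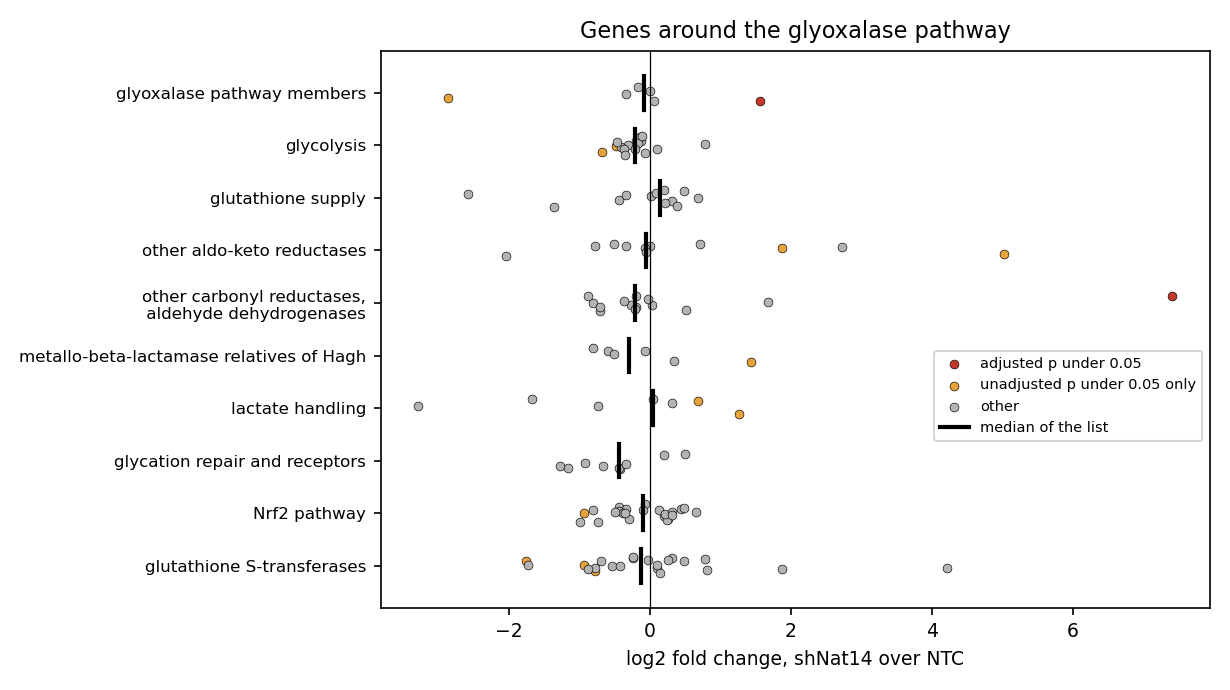
Log2 fold change of shNat14 over NTC (horizontal axis) for the genes above the lowest level in each list (rows); each point is a gene, coloured by the deposited p-values, with small vertical offsets for visibility, and the black line is the median of the list. Glo1 at 1.56 and Aldh1a7 at 7.41 are the 2 red points. The medians drawn lie between -0.43, for glycation repair and receptors, and 0.15. The list of Glo1 relatives in the vicinal oxygen chelate family is not drawn.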

How the data were processed

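RNA of sorted cortical cells was compared between 3 shNat14 and 3 NTC libraries, grouped by sample titles. Libraries were made with Nextera protocols, per the labels. The file is the authors' comparison. Per the file headers, the log2 values deposited by the authors are a fold change and a mean level in CPM, and the p-values are raw and adjusted. Tools listed without roles in the submitters' processing notes are HTSeq 0.5.4p1, SAMtools 0.1.19, DESeq and TopHat2 2.0.8, beside the human build hg19. The build, the test, the normalization and the prior count are therefore uncertain. Benjamini-Hochberg adjustment of the deposited p-values matched the deposited column within 4.1e-05.

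The members and gene lists were chosen with earlier results of these data known. Genes named are all members, called list genes, the smallest p per list and direction at or above the median level, and for markers the smallest p, of which 1 result is not reported here. Neighbours named are the nearest 2 on each side of Glo1 and any at p under 0.05. Others, such as Aldoa, Tpi1, Gapdh, Gclc, Gclm, Nqo1, Hmox1, Dcxr, Gstp1, Gstt2, Akr1c18, Hpdl, Slc16a1, Ldhd, Stab1, Ggt1, Ggt5, Ttr, Foxj1, Slc17a7, Umodl1, Zfand3 and Mdga1, were chosen after their values were seen. Of the symbols, 21627 matched RefSeq on GRCm38.p6, which was used for names and gene order. Approximate intervals take the SE implied by each p, and implied levels take the deposited mean as the mean of both groups. List medians and counts cover genes above the lowest level. Computations used Python 3.11.15 and scipy 1.17.1 and were tested on simulated data. Alternatives were other adjustments, thresholds, centring and level filters.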

Additional observations from a re-analysis of the deposited data

How the results depend on the processing

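Glo1 was called under all 6 alternatives of adjustment and threshold, and was the single member called in each. Over all genes the count of calls was 34, and became 16 when adjusted over rows at or above the median level, 17 with Bonferroni correction, 55 at an adjusted p under 0.1 and 19 at an adjusted p under 0.01. With fold changes less the median of the better-expressed genes (at or above the median level), Glod4 turned to -0.02 on the log2 scale, and no other member changed sign. Limited to genes at or above the median level, the members at an unadjusted p under 0.05 numbered 1 in place of 2. The further aldo-keto reductases at that p numbered 1 in place of 2 and the Glo1 relatives 0 in place of 1. Microglia markers numbered 3 in place of 5 and endothelial markers 0 in place of 1. Fewer genes were counted in each of these lists. With a t distribution of 4 degrees of freedom the approximate interval of Glo1 became 1.51 to 1.61, so its width rests on the distribution assumed. The count of neighbours of Glo1 that were higher stayed at 4 above the lowest level, a setting added after seeing the data. No paired analysis was possible because no column holds a library's own values, and for the same reason the fits without each replicate and with another normalization were not run. Depth per library is unknown.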

Other observations

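The genes nearest to Glo1 in log2 fold change and mean log2 CPM together, over this single comparison, were Fam84a, Cdv3, Cnr1, Usp22 and Yme1l1. In the authors' deposited table their log2 fold changes ran from 0.78 (Yme1l1) to 0.88 (Fam84a and Usp22), at mean levels of 9.29 to 9.94 log2 CPM, and none was called. The Euclidean distance to Glo1 was 0.69 for the nearest, Fam84a, and 0.81 for the last, Yme1l1. Cnr1, the cannabinoid receptor of neurons, stood at 0.82 by the authors' deposited table (p = 0.00479, adjusted p = 0.467).

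The remaining marker lists had no called gene by the authors' deposited table. In radial glia and intermediate progenitors 5 of 8 genes had a negative fold change (median -0.10), and Eomes, a factor of intermediate progenitors, had the smallest p at -0.54 (p = 0.144) by the authors' deposited table. In the oligodendrocyte lineage 5 of 6 were negative (median -0.24), and the authors' deposited table had Pdgfra at -0.47 (p = 0.183). All 6 endothelial markers were positive (median 1.43), with Tek at 4.43 and a mean of 1.20 log2 CPM by the authors' deposited table (p = 0.0397). Of 6 meningeal fibroblast markers 5 were negative (median -0.87), and 3 had an unadjusted p under 0.05, all lower, against 2.84% of all rows above the lowest level, with the smallest for Serping1 at -0.83 by the authors' deposited table (p = 0.0355). Apoe had the smallest p of the astrocyte markers (-1.10, p = 0.00021), C1qb of the microglia markers (-1.62, p = 0.00169) and Enkur of the choroid plexus and ependyma markers (1.37, p = 0.0332) by the authors' deposited table.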
